A study of Mus musculus with 12 samples.

Results

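The potassium channel genes of the mouse were read out of the RNA sequencing of epididymal white adipose tissue, the abdominal fat pad that lies against the epididymis. Every row of the count table was taken whose symbol begins with Kcn, followed by lower-case letters and a digit. This gave 97 of the 27179 genes in the table: 40 voltage-gated, 15 inward rectifier, 14 tandem-pore domain and 8 calcium- or sodium-activated genes, 16 genes for accessory proteins and 4 noncoding RNAs that carry a channel's name. The rule used names alone and no measured value, but it was set with earlier results of these data known. All 97 matched a RefSeq gene of GRCm38.p6, 93 as protein-coding and 4 as long noncoding RNA.

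The tissue came from 12 male C57BL/6J mice on chow. The vehicle group of 6 mice was injected with saline into the peritoneum, and the epinephrine group of 6 with sodium epinephrine at 0.5 mg/kg by the same route. Fat was collected 1 h later in both groups. The listed ages run from 12 to 17 weeks in the vehicle group and from 18 to 23 weeks in the epinephrine group, 1 week apart in listed order. Such a series may be an error of the listing, which was not settled here; as listed, age and treatment cannot be told apart. Libraries are named by group and replicate number.

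Potassium channels let potassium leave or enter a cell down its gradient and so hold or restore the membrane voltage. Voltage-gated channels open when the membrane depolarises, inward rectifiers and tandem-pore channels carry resting current, and calcium-activated channels couple voltage to intracellular calcium. Accessory subunits do not form a pore and instead change how a pore opens or where it is placed. In fat, channels are present in adipocytes, in vessel walls, in immune cells and in nerve fibres, and bulk RNA does not separate these sources; fewer cells of a type and less RNA per cell cannot be told apart.

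Gene counts summed to 24821601 in the shallowest library and 34405433 in the deepest. Levels are given in CPM, read counts scaled to a fixed library total, with TMM factors that correct for differences in library composition. To compare genes with each other, CPM was divided by the gene length listed in the table, in kilobases. The adipocyte markers Fabp4 and Adipoq were at no less than 2827 CPM and 1143 CPM in any library. Epididymal transcripts were also present, at very unequal levels. The epididymal score, the mean log2 CPM of 20 epididymis and testis markers, ran from -1.99 to 9.16 among vehicle and from -0.49 to 9.18 among epinephrine libraries. The epididymal protein gene Gpx5 took 1.98% of counts in vehicle 2, 1.09% in epinephrine 1 and 0.93% in epinephrine 2, and at most 0.398% in the other libraries. These libraries stand apart in many Kcn genes, and how part of the genes moved with the score is given below.

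Of the 97 genes, 56 passed edgeR's filter on low counts and were tested. The other 41 included 4 with no read in any library: Kcnh5, Kcnk9, Kcnk15 and Kcnk16. A count of 0 in a library allows a level of up to between 0.0872 and 0.121 CPM (3 reads of the library's total), which covers counting error only. The highest count of an untested gene in any library was 28 reads, and its level did not exceed 0.866 CPM. Among the untested genes were Kcna3, a channel of lymphocytes and macrophages that has also been studied in adipocytes, with at most 28 reads in a library, and Kcnj10, with at most 16. At a level of at least 1 CPM per kilobase, 16 genes were found in all 12 libraries, and 26 reached it by their median over the libraries.

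Kcns3 had the highest median level per kilobase. It encodes a silent subunit that forms no channel alone and modifies voltage-gated pores it joins. Kcns3 was at a median of 15.2 CPM per kilobase over the 12 libraries, with a range from 7.50 to 20.0. It was lowest in vehicle 2 and epinephrine 1, at 23.0 and 23.6 CPM, and at 27.9 CPM or more elsewhere.

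**Figure D1:**
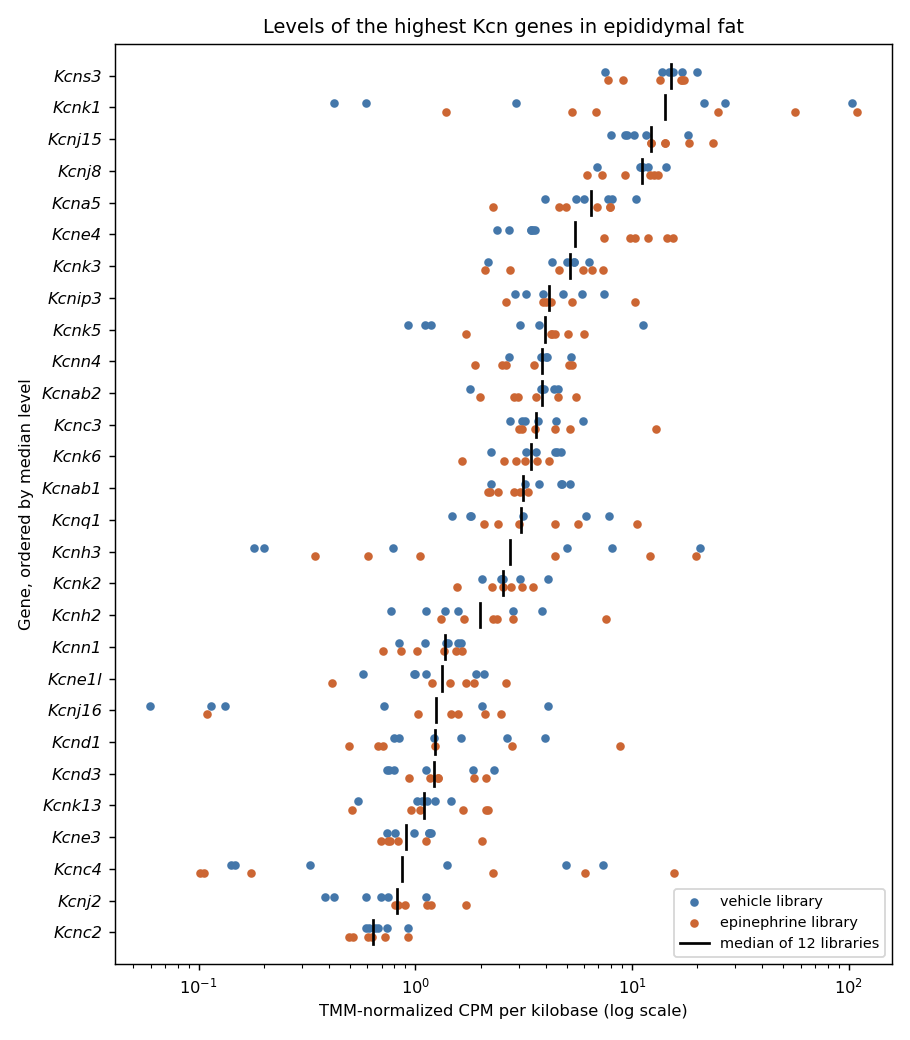
Levels of 28 of the 30 Kcn genes with the highest median over 12 libraries, in CPM per kilobase of listed gene length on a logarithmic axis. Each point is a library (blue, vehicle; orange, epinephrine) and each bar the median of 12. Kcns3 lies within 7.50 to 20.0, whereas Kcnk1, next to it by median, runs from 0.423 to 109.

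After Kcns3 and Kcnk1, which is described below, inward rectifiers were the highest by median. Kcnj15, an inward rectifier of epithelia and other tissues, was at a median of 12.3 CPM per kilobase (7.97 to 23.6) and ranked between 2 and 5 among the 97 genes in every library. Kcnj8, the pore of the ATP-sensitive channel of vascular smooth muscle and pericytes, was at 11.1 CPM per kilobase (6.19 to 14.3). Abcc9, its sulfonylurea-receptor partner, had a mean of 9.75 CPM per kilobase over the 12 libraries; the mean of Kcnj8 was 10.6. Kcnj11, the pore of the ATP-sensitive channel of pancreatic beta cells, had a median of 0.236 CPM per kilobase, but it reached 8.97 in its highest library. Ranges of Kcnj15 and Kcnj8 overlap with that of Kcns3, and their order is not separated by the spread between libraries.

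The voltage-gated pore gene Kcna5, known from vascular smooth muscle, came next at a median of 6.46 CPM per kilobase (2.27 to 10.4). Kcne4, the highest accessory gene by mean over the 12 libraries, was at 5.48 (2.39 to 15.5). Its groups did not overlap, as given below, so this median describes neither group. Its rank rests on the epinephrine libraries. In vehicle its mean was 7.80 CPM at a listed length of 2463 bases, per kilobase below that of Kcnip3 (15.1 CPM, 3227 bases). Kcnip3, which encodes a calcium-binding protein that associates with voltage-gated channels and also binds DNA, was at 4.12 (2.61 to 10.3). Among tandem-pore genes, the acid-sensitive background channel gene Kcnk3 was at 5.19 (2.10 to 7.33) and Kcnk5, of the alkaline-activated type, at 3.98 (0.929 to 11.3). Kcnk5 was at 37.9 CPM in vehicle 2 and at 3.13 to 3.96 CPM in vehicle 4 to 6. Kcnip3 and Kcnk5 rose with the epididymal score, as given below, and Kcna5 and Kcnk3 fell.

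Calcium-activated channel genes were lower. Kcnn4, the intermediate-conductance channel of blood cells and endothelium, had a median of 3.83 CPM per kilobase (1.89 to 5.28), and Kcnn1, a small-conductance channel of neurons, 1.37 (0.707 to 1.64). Kcnma1, the large-conductance pore of smooth muscle, was at 0.434 (0.299 to 1.14) and rose with the epididymal score, as given below. All 8 genes of this family passed the filter, whereas 22 of 40 voltage-gated, 7 of 15 inward rectifier, 6 of 14 tandem-pore and 12 of 16 accessory genes did. Of the 4 noncoding RNAs, only Kcnq1ot1 passed.

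The gene highest by mean, Kcnk1, had reads in all 12 libraries but at very unequal levels. It encodes a weakly conducting tandem-pore channel known from epithelia. It was at 62.0, 239, 49.5, 6.71, 1.37 and 0.973 CPM in vehicle 1 to 6 and at 252, 131, 57.7, 3.20, 15.7 and 12.2 CPM in epinephrine 1 to 6. The highest values are those of vehicle 2, epinephrine 1 and epinephrine 2, the libraries with the most Gpx5, and Kcnk1 ranked anywhere from 1 to 31 among the 97 genes. It was the highest Kcn gene per kilobase in all 6 libraries of numbers 1 to 3, and Kcns3 was in all 6 of numbers 4 to 6. Summed over the 97 genes, Kcn transcripts ran from 390 CPM in vehicle 6 to 961 CPM in epinephrine 1.

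Many Kcn genes followed the epididymal score. In an edgeR quasi-likelihood fit with the score and the group as terms, 27 of the 56 tested Kcn genes rose with the score and 11 fell, at an adjusted p (Benjamini-Hochberg over all genes) below 0.05. Over all 16175 genes tested, 22.1% rose and 22.7% fell. Slopes are log2 changes per unit of score. With the replicate number as a block, 1 Kcn gene, Kcnj11, rose and 0 fell, among 242 genes of the whole table that rose and 35 that fell. The score itself moved with the number: it was 4.20 to 9.18 over the libraries of numbers 1 to 3 and -1.99 to 4.00 over those of numbers 4 to 6. Of the 11 falling genes, 3 passed without vehicle 2 and 5 without epinephrine 1.

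Kcnj11 had the steepest slope, 0.73 (SE 0.066, edgeR adjusted p = 4.81e-05). Its levels were 0.729, 29.2, 6.71, 0.809, 0.325 and 0.118 CPM in vehicle 1 to 6 and 21.1, 24.3, 1.76, 0.439, 0.518 and 0.483 CPM in epinephrine 1 to 6. It was above 20 CPM in the same 3 libraries that led in Gpx5, and under 1 CPM in the 7 libraries with the lowest scores. Abcc8, whose product partners Kcnj11 in beta cells, also rose with the score (slope 0.32, SE 0.10, edgeR adjusted p = 0.0258). Its highest level, 11.5 CPM, was in epinephrine 1, and vehicle 1, where Kcnj11 was at 0.729 CPM, had 7.76 CPM.

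Other steep slopes were those of the voltage-gated genes Kcnc4 (0.63, SE 0.16) and Kcnh3 (0.59, SE 0.085), of Kcnk1 (0.58, SE 0.095), of the accessory gene Kcnmb4 (0.53, SE 0.089) and of the small-conductance calcium-activated gene Kcnn2 (0.53, SE 0.052). Kcnh3, a channel gene of forebrain neurons, ranged from 0.649 CPM in vehicle 6 to 74.2 CPM in vehicle 2. The levels of Kcnc4 did not simply order by Gpx5: they were 22.0 CPM in vehicle 1, where Gpx5 took 0.00217% of counts, and 47.2 CPM in epinephrine 1. The epithelial channel gene Kcnq1 rose less (0.21, SE 0.040), as did the silent subunit gene Kcng4 (0.20, SE 0.056). Of the genes whose levels are given above, Kcnk5 (0.20, SE 0.056), Kcnma1 (0.15, SE 0.026) and Kcnip3 (0.12, SE 0.028) rose too.

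The falling genes included several of those with the highest median levels. Kcnk3 had the steepest fall, -0.14 (SE 0.028, edgeR adjusted p = 0.00470). Kcnj8, at -0.088 (SE 0.018), Kcns3, at -0.0955 (SE 0.026), Kcna5 and the sodium-activated channel gene Kcnt2 also fell. Kcnj8 was at 15.0, 13.5 and 15.8 CPM in vehicle 2, epinephrine 1 and epinephrine 2 and at 20.3 CPM or more in the other 9 libraries. All 12 adipocyte and all 12 endothelial markers fell with the score as well, and so did 10 of 12 macrophage and monocyte markers, with 1 rising. Of 12 markers of smooth muscle and pericytes, where Kcnj8 and Kcna5 are known to be expressed, 3 fell and 3 rose. Abcc9 fell (slope -0.083, SE 0.023, edgeR adjusted p = 0.0153). The summed level of the adipocyte list was 13307 CPM in vehicle 2 and 17302 CPM in epinephrine 1, against 25113 CPM or more in the other libraries. The part of tissue composition in these levels was not tested.

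**Figure D2:**
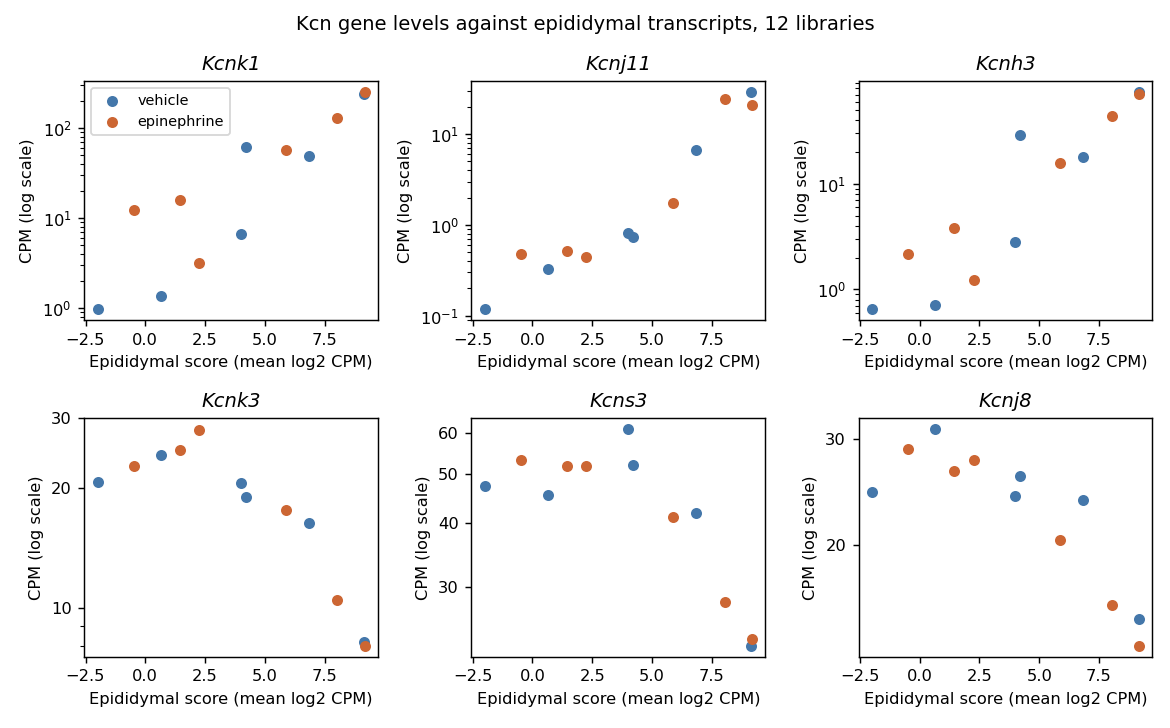
Levels of 6 Kcn genes (CPM, logarithmic axis) against the epididymal score (mean log2 CPM of 20 markers), with a point for each of 12 libraries. Kcnk1, Kcnj11 and Kcnh3 are highest at the highest scores in both groups, and Kcnk3, Kcns3 and Kcnj8 are lowest there.

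Against this background the comparison asked which channel genes differed 1 h after epinephrine. At an edgeR adjusted p below 0.05, 1 of the 56 tested genes was higher, Kcne4, and 2 were lower, Kcna2 and Kcnq1ot1. Over all 16175 genes, 2.65% were higher and 3.58% lower, so the share of Kcn genes called was near the background in each direction. At an unadjusted p below 0.05 the count was 7 of 56, or 12.5%, against 17.2% of all genes. The median log2 fold change of the 56 genes was 0.12, and that of all genes was -0.00059. The genes followed no common direction, with 32 positive and 24 negative log2 fold changes.

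Kcne4 rose 3.65-fold. It encodes a single-span accessory subunit that is known to lower the currents of several voltage-gated channels. It was at 8.42, 5.88, 8.43, 8.75, 8.62 and 6.69 CPM in vehicle 1 to 6. In epinephrine 1 to 6 it was at 18.3, 24.1, 29.3, 25.4, 38.2 and 35.6 CPM. Every epinephrine library lay above every vehicle library, and the lowest epinephrine values were those of epinephrine 1 and 2, which hold many epididymal transcripts. The group means were 7.80 ± 1.20 and 28.5 ± 7.45 CPM (SD over 6 mice each; log2 change 1.87 ± 0.18 SE, edgeR adjusted p = 0.00015). Groups did not overlap in 4.79% of all genes tested, and in 2 of the 56 Kcn genes.

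The rise of Kcne4 was as large with the epididymal score as a covariate (log2 fold change 1.87, edgeR adjusted p = 2.93e-05) and without the 3 libraries richest in Gpx5 (1.98). Within numbers 4 to 6 it was 2.04 (edgeR adjusted p = 0.00216) and within numbers 1 to 3 it was 1.67 (edgeR adjusted p = 0.22); in the latter fit no gene of the whole table was called, and 1356 had an unadjusted p below 0.05. Within numbers 4 to 6, 3 of 49 Kcn genes were called higher and 1 lower, against 4.4% and 3.99% of all genes. The slope of Kcne4 on the score did not pass the test. Kcne4 (Entrez gene 57814) codes for protein and spans chromosome 1 from 78816911 to 78820032 in GRCm38.p6. In GENCODE M21 its exons share no base with those of another gene.

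Kcna2 fell to 0.453 of its vehicle level. It encodes a delayed rectifier pore of axons and of vascular smooth muscle. Its levels were 7.40, 3.75, 5.32, 7.49, 7.09 and 7.67 CPM in vehicle 1 to 6 and 2.12, 2.66, 2.94, 2.99, 3.19 and 3.62 CPM in epinephrine 1 to 6. The groups did not overlap, but vehicle 2, at 3.75 CPM, lay just above epinephrine 6. The means were 6.45 ± 1.58 and 2.92 ± 0.506 CPM (SD over 6 mice each; log2 change -1.14 ± 0.19 SE, edgeR adjusted p = 0.00486).

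Kcna2 also fell with the epididymal score (slope -0.071, SE 0.018, edgeR adjusted p = 0.0113). With the score as a covariate its log2 fold change with epinephrine was -1.09 (edgeR adjusted p = 0.000405). It was -1.18 within numbers 4 to 6 (edgeR adjusted p = 0.00534) and -1.07 within numbers 1 to 3 (edgeR adjusted p = 0.456). Per kilobase Kcna2 was a low gene, with a median of 0.318 CPM per kilobase and rank 40 of 97, since its listed length is 11582 bases. Kcna2 (Entrez gene 16490) lies on chromosome 3, positions 107090883 to 107115005, and its exons share no base with another gene. Markers of Schwann cells and nerve, where Kcna2 is known to be expressed by axons, summed to between 49.6 and 73.5 CPM with vehicle and between 52.9 and 77.2 CPM with epinephrine, and 0 of the 7 tested passed (edgeR). For smooth muscle and pericytes 1 of 12 markers passed, Tagln, which was higher; the 12 summed to 1381 to 1861 CPM with vehicle and to 1546 to 2147 CPM with epinephrine. The part of these cells in the fall of Kcna2 was not tested.

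The promoters of the 2 protein-coding genes called are shown because epinephrine, through cyclic AMP, is known to act on the CRE sequence in promoters. Each window holds 300 bases around a RefSeq transcript start, all but the last 50 of them upstream, 5′ to 3′ on the gene's strand, in GRCm38.p6: chr1:78816661-78816960, plus strand, for Kcne4, and chr3:107101317-107101616, plus strand, for Kcna2. The Kcna2 window is that of an internal transcript start, 10684 bases inside the gene's first listed base, and the sequence at that first base was not examined. Capitals mark the CRE core TGACG.
Kcne4: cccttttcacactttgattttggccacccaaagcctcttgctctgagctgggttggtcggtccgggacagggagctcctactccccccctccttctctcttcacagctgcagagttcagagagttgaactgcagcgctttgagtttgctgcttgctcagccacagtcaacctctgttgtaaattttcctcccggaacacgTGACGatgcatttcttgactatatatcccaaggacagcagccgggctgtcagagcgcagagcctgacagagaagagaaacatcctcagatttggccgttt
Kcna2: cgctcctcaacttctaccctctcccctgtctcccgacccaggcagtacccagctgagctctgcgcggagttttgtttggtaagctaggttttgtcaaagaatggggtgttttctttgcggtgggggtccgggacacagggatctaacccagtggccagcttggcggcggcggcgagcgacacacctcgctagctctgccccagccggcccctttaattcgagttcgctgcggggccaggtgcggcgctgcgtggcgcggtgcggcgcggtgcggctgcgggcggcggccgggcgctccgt
The Kcne4 window holds 1 CRE core, which begins 50 bases before the start. The Kcna2 window holds 0. Neither window holds the full CRE, TGACGTCA, or the AP-1 motif TGANTCA, searched on both strands; the core lies within the full CRE. The core was present in 20.8% of the 32851 promoter windows of this length and in 18.8% of the 96 windows of Kcn genes. A core of this kind is therefore common, and its match is a description of the letters only. The full CRE was present in 1.79% of all windows and in 0 of the 96, and the AP-1 motif in 7.81% and 4.17%.

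Kcnq1ot1 fell to 0.78 of its vehicle level. This long noncoding RNA is transcribed from within Kcnq1 on the opposite strand, from the paternal copy, and is known for silencing neighbouring imprinted genes. It was at 13.1, 15.0, 12.2, 12.0, 10.9 and 12.5 CPM in vehicle 1 to 6 and at 10.99, 11.1, 9.87, 8.74, 9.16 and 9.17 CPM in epinephrine 1 to 6. Vehicle 5, the lowest of its group, lay below epinephrine 1 and 2, so the groups overlapped. The means were 12.6 ± 1.38 and 9.84 ± 1.01 CPM (SD over 6 mice each; log2 change -0.36 ± 0.095 SE, edgeR adjusted p = 0.0473). The call sat close to the threshold. It was lost with RLE scaling (edgeR adjusted p = 0.0739), with limma on the variance-stabilized values (adjusted p = 0.0617) and without any 1 of vehicle 1, 2, 3, 4 or 6 or epinephrine 3, 4, 5 or 6 (edgeR adjusted p = 0.0761 to 0.147).

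Kcnq1ot1 (Entrez gene 63830) is listed at 83437 bases, on chromosome 7, positions 143213111 to 143296547. Its exons share 121 bases with Kcnq1 on the other strand and 119 to 460 bases with each of 4 other gene models on that strand. The strand setting of the counting is not given in the sources used here, so reads from these genes may not be told apart. Kcnq1ot1 also rose with the epididymal score (slope 0.029, SE 0.0099, edgeR adjusted p = 0.0344), and with the score as a covariate its change with epinephrine was -0.38 (edgeR adjusted p = 0.00751). Kcnq1 had a log2 fold change of 0.34 (SE 0.52, edgeR adjusted p = 0.866).

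**Figure D3:**
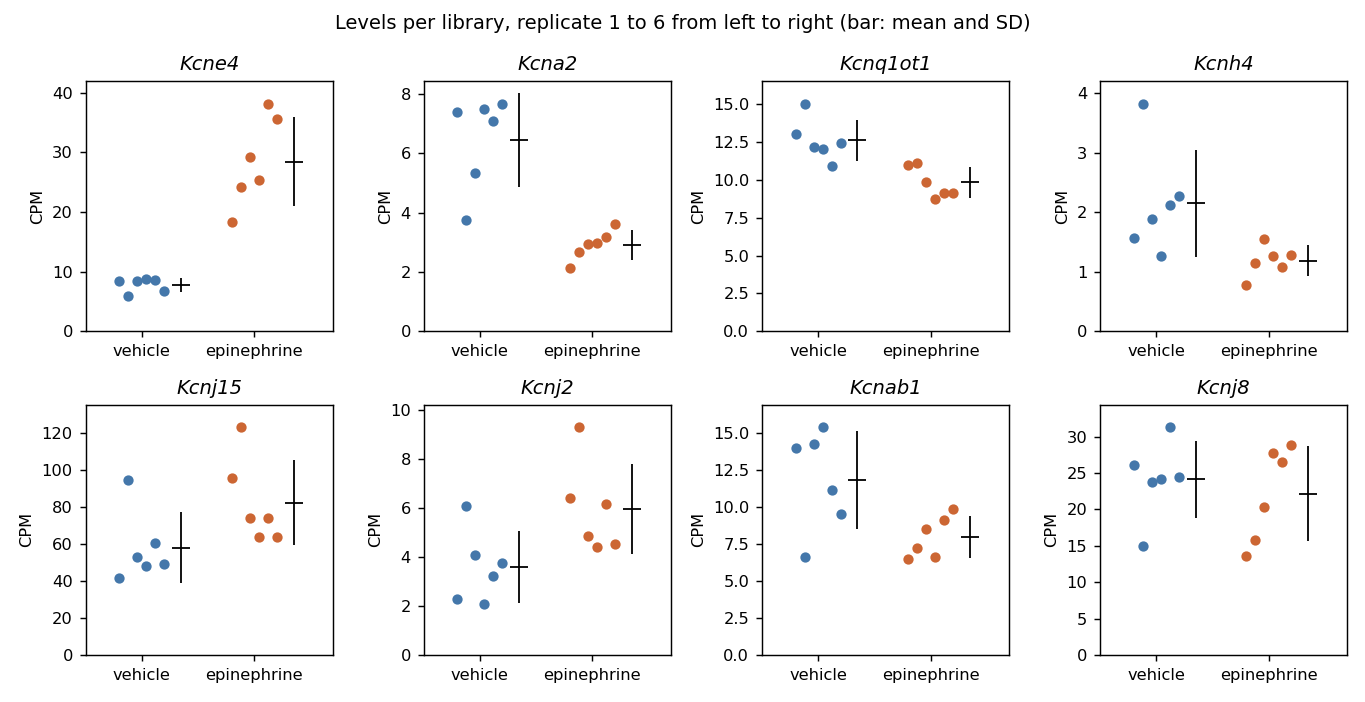
Levels of 8 Kcn genes in CPM per library, replicates 1 to 6 from left to right within each group, with the mean and SD of 6 libraries beside them. The groups are apart in Kcne4 and Kcna2 and overlap in the other 6 genes.

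Kcnh4, Kcnab1, Kcnj2 and Kcnj15 had an unadjusted p below 0.05 and an adjusted p above it. Kcnh4, an ether-a-go-go-like channel gene of neurons, was at 1.57, 3.82, 1.88, 1.26, 2.12 and 2.27 CPM in vehicle 1 to 6. In epinephrine 1 to 6 it was at 0.779, 1.14, 1.55, 1.27, 1.08 and 1.29 CPM (log2 fold change -0.86, SE 0.27, edgeR adjusted p = 0.0909). Vehicle 4 lay within the range of the epinephrine libraries and vehicle 1 just above it. Kcnh4 passed in DESeq2 (adjusted p = 0.0419) and with library-size scaling (edgeR adjusted p = 0.0377). Its log2 change was smaller without the 3 libraries richest in Gpx5, at -0.48 (edgeR adjusted p = 0.213), and in limma-voom, at -0.45 (adjusted p = 0.171).

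Kcnab1 encodes a beta subunit that speeds the inactivation of channels of the Kcna family, to which Kcna2 belongs. It averaged 11.8 ± 3.34 CPM in vehicle and 7.97 ± 1.42 CPM in epinephrine mice (SD over 6 mice each; log2 change -0.57 ± 0.20 SE, edgeR adjusted p = 0.142). Vehicle 2, at 6.64 CPM, and vehicle 6, at 9.55 CPM, lay among the epinephrine libraries, and without vehicle 2 the edgeR adjusted p was 0.0263. In limma-voom it passed at an adjusted p of 0.0174.

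The inward rectifier genes Kcnj15 and Kcnj2 had positive fold changes. Kcnj15 was at 41.5, 94.9, 53.2, 48.1, 60.7 and 49.1 CPM in vehicle 1 to 6 and at 95.8, 123, 74.0, 63.8, 74.0 and 63.8 CPM in epinephrine 1 to 6. Apart from vehicle 2, every vehicle library lay below every epinephrine library, and within each of the 6 replicate numbers, vehicle 2 included, the epinephrine library was higher. Epinephrine against vehicle gave 0.51 on the log2 scale (SE 0.22, edgeR adjusted p = 0.26), and 0.74 without vehicle 2 (edgeR adjusted p = 0.0382). Without the 3 libraries richest in Gpx5 it was 0.45 (edgeR adjusted p = 0.0265). With the replicate number as a block it was 0.52 (unadjusted p = 0.00414, edgeR adjusted p = 0.0678). The labels do not say whether libraries of equal number are pairs.

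Kcnj2, a strong inward rectifier of muscle and endothelium, was at 2.30, 6.10, 4.07, 2.10, 3.22 and 3.77 CPM in vehicle 1 to 6 and at 6.42, 9.30, 4.87, 4.39, 6.18 and 4.55 CPM in epinephrine 1 to 6. Again vehicle 2 alone overlapped the epinephrine libraries, and the epinephrine library was higher within all 6 numbers. Epinephrine against vehicle gave 0.73 on the log2 scale (SE 0.28, edgeR adjusted p = 0.185), and 0.98 without vehicle 2 (edgeR adjusted p = 0.0443). With the replicate block it was 0.77 (unadjusted p = 0.00528, edgeR adjusted p = 0.0785). Kcnj15 rose with the epididymal score too (slope 0.068, SE 0.022, edgeR adjusted p = 0.0265).

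By family, 1 of 22 tested voltage-gated genes was called, Kcna2, and 1 of 12 accessory genes, Kcne4. None of 7 inward rectifier, 6 tandem-pore or 8 calcium- or sodium-activated genes was called by edgeR, and 2, 0 and 0 of them had an unadjusted p below 0.05. By DESeq2, 0 of these 21 genes passed. In limma-voom, Kcnj2, Kcnj15 and Kcnn3 passed as higher (limma-voom adjusted p = 0.0185, 0.0229 and 0.0333). The median log2 fold change was 0.37 for inward rectifiers, 0.16 for tandem-pore genes, 0.15 for accessory genes, -0.03 for voltage-gated genes and -0.11 for calcium- or sodium-activated genes. The inward rectifier median is the value of Kcnj11 (SE 1.41), which was -1.10 without the 3 libraries richest in Gpx5. Of the 7 inward rectifier genes, 6 had positive and 1 had a negative fold change. No family median was tested.

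The channel genes most abundant in the tissue mostly did not pass. Kcns3 averaged 45.1 ± 12.8 CPM in vehicle and 41.5 ± 13.0 CPM in epinephrine mice (SD over 6 mice each; log2 change -0.12 ± 0.26 SE, edgeR adjusted p = 0.913). Kcnj8 was at 24.1 ± 5.25 and 22.1 ± 6.52 CPM (log2 fold change -0.12, SE 0.22), and its partner Abcc9 at 75.2 ± 18.9 and 71.8 ± 19.5 CPM (-0.07, SE 0.22). Kcnk3 had a log2 fold change of 0.03 (SE 0.33), Kcna5 of -0.27 (SE 0.30), Kcnn4 of -0.18 (SE 0.26) and Kcnip3 of 0.11 (SE 0.33). The 4 largest standard errors were those of genes that rose with the epididymal score, at 1.41 for Kcnj11, 1.34 for Kcnc4, 1.29 for Kcnk1 and 1.23 for Kcnh3.

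Kcnh8 and Kcnj12 had large fold changes that missed the threshold, and each was highest in epinephrine 1. Group medians, vehicle then epinephrine, were 0.341 and 0.963 CPM for Kcnh8 and 0.411 and 0.732 CPM for Kcnj12. Kcnh8, an ether-a-go-go-like channel gene of neurons, had a log2 fold change of 1.73 (SE 0.97, edgeR adjusted p = 0.424), with 6.57 CPM in epinephrine 1 and at most 2.18 CPM in the other 11 libraries. Kcnj12, an inward rectifier gene of heart and muscle, had one of 1.28 (SE 1.20, edgeR adjusted p = 0.712), with 7.20 CPM in epinephrine 1 and at most 3.19 CPM elsewhere. Both rose with the epididymal score, and both were chosen after their values were seen.

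Some known partners of Kcne4 were also read, and the set is not complete. Among pore genes whose currents this subunit is known to change, Kcnq1 had the value given above. Kcna1 had a log2 fold change of 0.55 (SE 0.55, edgeR adjusted p = 0.738) and Kcnma1 of 0.17 (SE 0.38, edgeR adjusted p = 0.92), and Kcna3 was too low to test. Of the other single-span subunit genes, Kcne1 was too low to test, and Kcne2 (-0.78, SE 0.77), Kcne3 (0.04, SE 0.28) and Kcne1l (0.27, SE 0.41) did not pass. These genes were chosen after their values were seen.

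**Figure D4:**
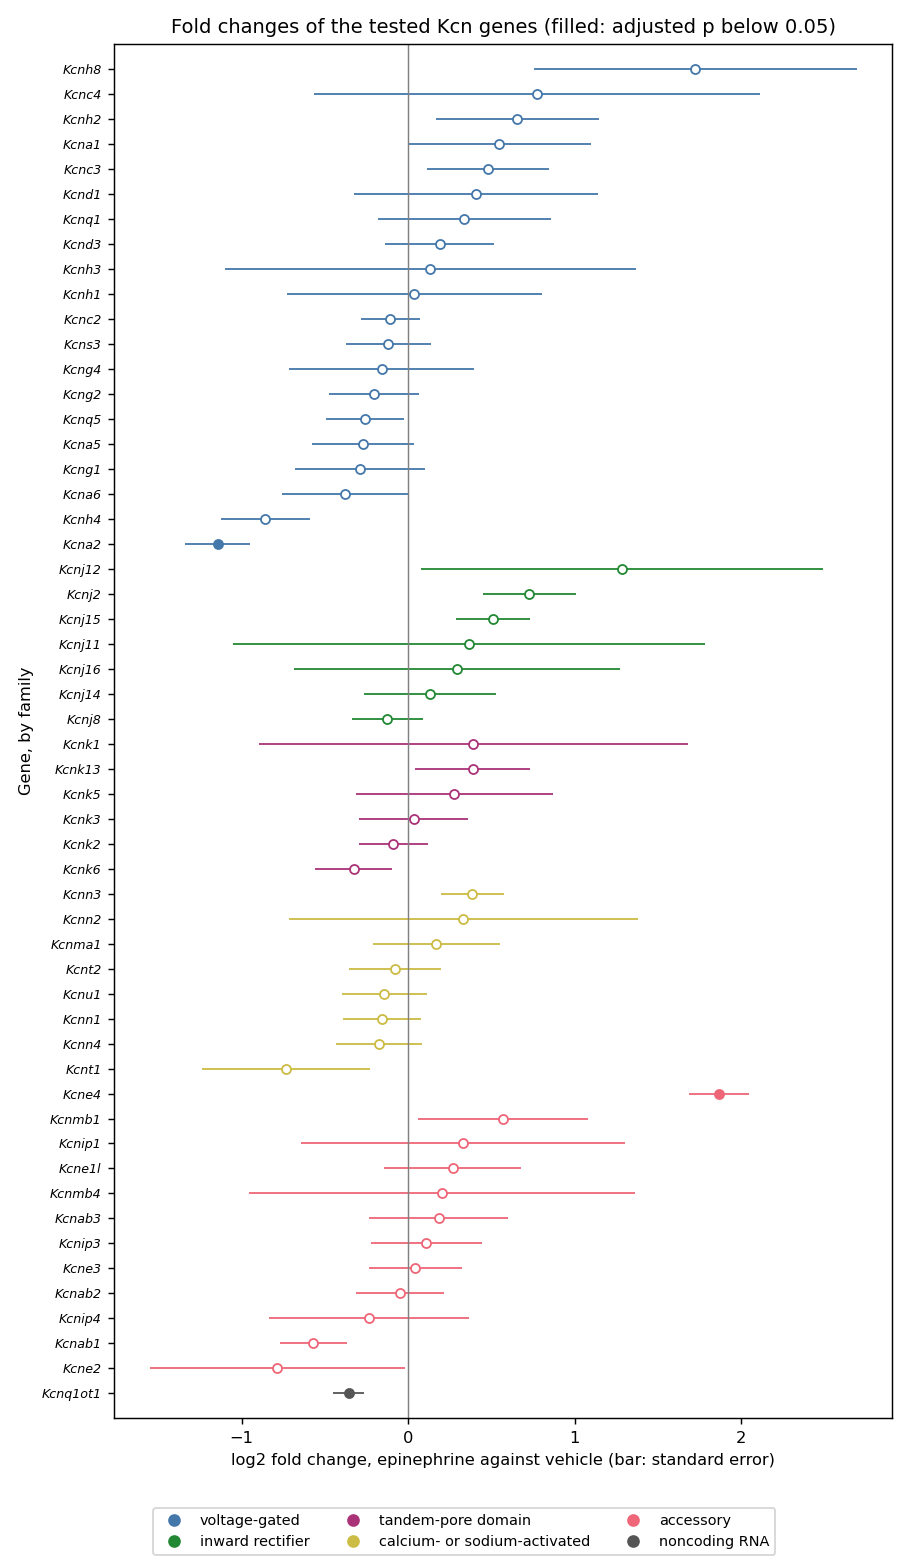
Log2 fold change of 54 of the 56 tested Kcn genes, epinephrine against vehicle, with its standard error, ordered within families. Filled points passed at an edgeR adjusted p below 0.05: Kcna2 at -1.14, Kcne4 at 1.87 and Kcnq1ot1 at -0.36.

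Other genes of potassium handling were read from a list of 37: accessory subunits with other names, HCN cation channels, the sodium-potassium pump, chloride-coupled potassium transporters and organelle channels. Of these, 28 were tested and 0 passed by edgeR or DESeq2; at an unadjusted p below 0.05 there were 3 by edgeR and 4 by DESeq2. The median log2 fold change was 0.11. The 3 genes were Atp1b3, a pump subunit (133.9 ± 9.14 CPM with vehicle, 152 ± 15.4 CPM with epinephrine, SD, n = 6 each), Fxyd7, a pump regulator, and Tmem175, a lysosomal potassium channel. Their log2 fold changes were 0.19 (SE 0.079), -0.58 (SE 0.23) and -0.16 (SE 0.056). In limma-voom with sample weights Atp1b3 passed as higher and Fxyd7 as lower.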

How the data were processed

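Per the labels' protocols, RNA was extracted with TRIzol and RNeasy and libraries were made with a SMARTER mRNA-Seq kit. Tools listed by the submitters' processing notes are HISAT2, featureCounts, cutadapt, FastQC and DESeq2; the build is mm10, and no version is given. The authors deposited raw counts of reads per gene, with gene lengths in bases (unit: other), and a second table of variance-stabilized values on a log2-like scale, used here as an alternative. Gene models with no symbol, 1312 of them, could not be members and stayed in library sizes and tests.

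Counts were filtered with filterByExpr (minimum count 10, total 15), scaled with TMM and tested with edgeR 4.0.16 (quasi-likelihood, robust) in R 4.3.3, with limma 3.58.1 and DESeq2 1.42.0 as alternatives. P-values were adjusted by Benjamini-Hochberg over 16175 genes, at a threshold of 0.05; log2 CPM used a prior count of 1. On counts simulated from these libraries, 44.4% of genes changed 2-fold and 84.5% of those changed 4-fold were recovered for epinephrine against vehicle, among 15989 genes tested. Library depth is given in the report.

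The members, which a rule on names picks out, and the gene lists and tests were chosen with earlier results of these data known. Counting genes by their slope on the score was added after seeing the data. Named were Kcn genes past the threshold or with an unadjusted p below 0.05, the 10 highest per kilobase by mean, the 2 highest per family, the 4 most and 4 least correlated with the score, Kcnj8 and Kcnj11 with their partners Abcc8 and Abcc9, and Kcnq1ot1; a few genes are not reported here by name, and other genes were chosen after their values were seen. Of 12 marker lists, summed levels overlapped between the groups in all; markers called were Gzmb, Cldn5 and Tagln, higher, and Ncr1 and Hbb-bs, lower. For each of the 6 replicate numbers in the titles, the vehicle and epinephrine libraries correlated in their deviations from the group means (0.262 to 0.799 across genes). For 3 of the 12 libraries, the best-correlated library of the other group had the same number. The epididymal score moved with the number too, and the titles do not call the numbers pairs. The numbers were used as pairs in an alternative fit only. Each library is listed as its own mouse, and p-values measure the spread between animals.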

Additional observations from a re-analysis of the deposited data

Results flagged for a closer look

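In 5 of the 40 groups of 6 libraries examined (20 named genes in both treatments), 1 library lay far from the rest by Dixon's criterion. Chance alone flags about 1 in 20 groups of independent genes, but Kcnk1, Kcnj11 and Kcnn2 were named for their correlation with the epididymal score, which is high in vehicle 2, so that rate is no yardstick for them. In vehicle 2, the library with the highest Gpx5 share, Kcnk1 was at 239 CPM (next highest 62.0), Kcnj15 at 94.9 CPM (60.7), Kcnj11 at 29.2 CPM (6.71) and Kcnn2 at 2.71 CPM (0.826). In epinephrine 1, also rich in Gpx5, Kcnip3 was at 33.2 CPM, the next highest being 17.1 CPM. The groups of a gene share their libraries, so these flags are not independent.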

How the results depend on the processing

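Kcne4 stayed higher and Kcna2 lower, past the threshold, in 24 of 25 alternative settings each; the exception was numbers 1 to 3 alone. The count of Kcn genes higher, 1 in the main analysis, was 4 in limma-voom (Kcnj2, Kcnj15 and Kcnn3 added), 2 without the Gpx5-rich libraries (Kcnj15), 0 within numbers 1 to 3, 3 of 49 within numbers 4 to 6 (Kcnk13 and Kcnk5 added; 4.4% of all genes there were called higher) and between 1 and 3 when any library was left out, the 3 being without vehicle 2. The count lower, 2, was 1 with RLE scaling, with the VST values, within numbers 4 to 6 and at a threshold of 0.01, 0 within numbers 1 to 3, 3 with library-size scaling and DESeq2 (Kcnh4 added) and in limma-voom (Kcnab1 added), and 1 to 2 when any library was left out; Kcnq1ot1 was the gene lost with RLE, with VST and when libraries were left out, and passed in 12 of its 25 settings. The replicate block changed no call of epinephrine against vehicle. Of the 97 genes, 45 had a mean CPM of at least 1, and 63 had a read in every library. Genes rising with the score, 27, were 1 with the replicate block and 14 at a threshold of 0.01 (18 to 28 with a library left out), and those falling, 11, were 0 and 3 (3 to 14). Library-size scaling moved the median of all genes to -0.11.

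Log2 fold changes changed sign only in genes that did not pass. Without the Gpx5-rich libraries they were -0.099 for Kcnk1, -0.82 for Kcnh3, -0.060 for Kcnip3, -1.10 for Kcnj11 and 0.0092 for Kcnt2. Within numbers 4 to 6 they were 0.022 for Kcns3, 0.057 for Kcnj8 and 0.25 for Kcnn4. With the score as a covariate Kcnh3 was at -0.18 and Kcnn2 at -0.0086, and in limma-voom Kcnip3 at -0.026 and Kcnn2 at -0.049. Kcnk3 was at -0.081 with library-size scaling, -0.016 with the replicate block and -0.25 within numbers 1 to 3. With a library left out, ranges that crossed 0 were -0.52 to 0.24 for Kcng4, -0.65 to 1.21 for Kcnh3, -0.23 to 0.32 for Kcnip3, -0.37 to 2.27 for Kcnj11, -0.45 to 1.75 for Kcnk1, -0.12 to 0.19 for Kcnk3, -0.39 to 1.44 for Kcnn2, -0.24 to 0.0031 for Kcns3 and -0.20 to 0.043 for Kcnt2. The cause was not tested.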

Other observations

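The tandem-pore genes Kcnk5 and Kcnk13 were higher in epinephrine than in vehicle libraries of numbers 4 to 6, where epididymal scores were 4.00, 0.66 and -1.99 with vehicle and 2.25, 1.43 and -0.49 with epinephrine. Over all genes, 4.4% were called higher there. Kcnk5 was at 3.96, 3.74 and 3.13 CPM in vehicle 4 to 6 and at 5.80, 14.8 and 14.2 CPM in epinephrine 4 to 6 (log2 fold change 1.69, SE 0.36, edgeR adjusted p = 0.0389 within these libraries). Over all 12 libraries its log2 fold change was 0.28 (edgeR adjusted p = 0.913), and vehicle 2 was at 37.9 CPM. Kcnk13, a tandem-pore channel gene of microglia and macrophages, was at 3.51, 3.84 and 3.18 CPM and at 6.63, 5.14 and 6.76 CPM there (log2 fold change 0.81, SE 0.17, edgeR adjusted p = 0.0332). Whether the change differs between the numbers was not tested.

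Kcnj16, an inward rectifier gene of epithelia, was at 0.240, 0.456 and 0.531 CPM in vehicle 4 to 6 but at 9.96 and 5.87 CPM in epinephrine 5 and 6, and at 0.439 CPM in epinephrine 4. Kcnk1 was likewise higher in epinephrine 5 and 6, at 15.7 and 12.2 CPM, than in vehicle 5 and 6, at 1.37 and 0.973 CPM. Gpx5 was at 39.4 and 9.13 CPM in epinephrine 5 and 6 and at 42.5 and 3.80 CPM in vehicle 5 and 6. The 20 epididymis and testis markers summed to 210 and 97.2 CPM in epinephrine 5 and 6. In vehicle 5 and 6 they summed to 137 and 39.0 CPM. The 8 mesothelial markers summed to 604, 448 and 381 CPM in vehicle 4 to 6. In epinephrine 4 to 6 they summed to 486, 582 and 568 CPM. Vehicle 4 had the highest sum and the least Kcnj16 of these libraries. Over all 12 libraries, vehicle 1 had the highest sum, 689 CPM, and the most Kcnj16, 16.4 CPM. The part of epididymal or mesothelial cells in these levels was not tested. Kcnj16 did not pass over all 12 libraries (log2 fold change 0.29, SE 0.98, edgeR adjusted p = 0.946).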
